A study of Mus musculus with 11 samples.

Results

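Chromatin accessibility was compared between 2 states of the dentate gyrus, E1 and E0, in mice that carried an shRNA against c-Fos. The comparison used 5 of the 11 libraries of the study, all 3 of shRNA-cFos E0 and both of shRNA-cFos E1, chosen by their labels. E0 is deposited under the name sham, and the study concerns neuronal activation, of which E1 is the stimulated state. The stimulus is not spelled out in the labels. All animals were adult C57BL/6 mice, 8 weeks old, whose dentate gyrus had been infected with an adeno-associated virus (AAV) expressing the shRNA. Each library came from 1 mouse. The remaining 6 libraries, 3 of shRNA-Ctrl E0 and 3 of shRNA-Ctrl E1, carried a control shRNA in the same virus type, so both arms share the infection and differ in the target of the shRNA. The promoter that drives the shRNA and the cell types infected are not given in the sources used here, nor is the degree of c-Fos loss, which a list of open chromatin does not measure.

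ATAC-seq uses a transposase that inserts sequencing adapters into DNA not covered by nucleosomes, and a peak is a stretch where such insertions pile up. Peaks mark promoters, enhancers and other regulatory elements. The dentate gyrus is the entry field of the hippocampus and is packed with granule neurons, which are mostly silent and respond to strong input with a burst of immediate early genes. c-Fos is the product of one of these genes. It pairs with Jun proteins to form AP-1, a transcription factor that binds enhancers and can help to open them. The comparison therefore asks which chromatin differs between the states when this subunit is targeted.

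The measurements are 5 lists of peaks called by MACS, each with positions in build mm9 and a score per peak. Read depth is unknown. List length can follow open chromatin as well as depth, and the 2 cannot be told apart here. On chromosomes 1 to 19 and X, the shRNA-cFos E0 lists held 33134, 74432 and 28417 peaks, and the E1 lists 48262 and 40627. E0 replicate 2 stands apart, with more peaks than any other of the 5. Every list was therefore cut to its 28417 highest-scoring peaks, the length of the shortest. The lowest score kept was 58.25, 144.42 and 50 in E0 replicates 1 to 3, and 91.32 and 74.06 in E1 replicates 1 and 2, so the same rank stood for very different scores. Below, a score is given as its percentile within its own cut list, from near 0 for the weakest peak to near 100 for the strongest. With 2 libraries against 3, an exact permutation test cannot give a p below 0.1, so no single region was tested. The libraries hold mixed tissue, so a change in the share of cells in which a site is open cannot be told apart from a change within those cells. The mm9 genome and its gene annotation were not used here, so regions carry positions and no gene names, sequences or cell type checks.

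**Figure D1:**
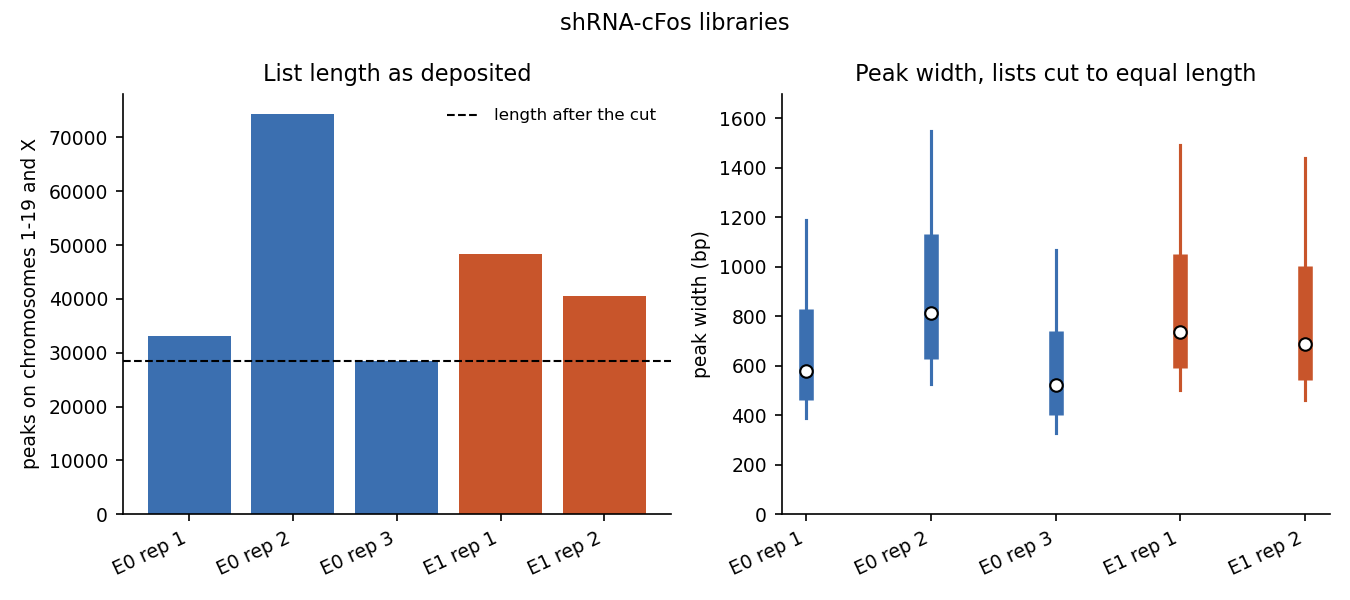
Left, length of each shRNA-cFos list as deposited, in peaks (chromosomes 1 to 19 and X), with the common length of 28417 as a dashed line. Right, peak width in bp after the cut, with the median (circle), the range between the quartiles (thick bar) and the 10th to 90th percentiles (thin bar); the order of the medians from 521 to 815 bp is the order of the list lengths.

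Joining overlapping peaks (1 bp or more) of the 5 cut lists gave 49242 regions. Every library called 14441 of them (29.3%), which were wide (median 1211 bp), and a single library called 16346 (33.2%), which were narrow (median 486 bp). Between these extremes stood 2321 regions (4.71%) present in both E1 lists and absent from the 3 E0 lists, named E1-only below. Another 1038 (2.11%) were called in all 3 E0 libraries and in no E1 library, named E0-only. The requirement differs, 2 libraries for one and 3 for the other. With 1 E0 library left out, so that 2 stood against 2, the counts were 3017 and 2068 (without replicate 1), 3254 and 1876 (without replicate 2) and 2796 and 2115 (without replicate 3), each time with more E1-only regions. Regions called in both E1 and 1 of 3 E0 libraries numbered 2090, and regions called in all 3 E0 and 1 of 2 E1 libraries numbered 1770. Regions found in 1 library alone were most numerous in E0 replicate 3 (4369) and least in E1 replicate 2 (2692).

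Regions of both kinds were narrower and lower in score than those called everywhere, and wider and higher in score than the other regions called in 1 to 4 libraries, which had a median width of 591 bp and a median percentile of 24.5. The other regions include those found in 1 library alone, and the median width of a region rose with the number of libraries calling it. It was 486 bp with 1 library, 642 bp with 2 and 727 bp with 3. The contrast in width thus largely follows from the number of callers, and percentiles were not compared at equal numbers. E1-only regions had a median width of 670 bp and a median percentile of 34.3 and 31.2 in E1 replicates 1 and 2. E0-only regions had a median width of 728 bp and a median percentile of 33.6, 33.5 and 36.3 in E0 replicates 1 to 3. Above the 50th percentile on average lay 409 of the 2321 E1-only regions (17.6%) and 136 of the 1038 E0-only regions (13.1%), against 7.83% of those other regions and 79.7% of the regions called in all 5. The median distance to the nearest region called in all 5 libraries was 45.6 kb from an E1-only region, 46.9 kb from an E0-only region, and 48.7 kb for the other regions called in 1 to 4 libraries. Within 2 kb of such a region lay 52 E1-only (2.24%) and 15 E0-only regions (1.45%), near the 1.92% of the other regions.

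Highest in score among the E1-only regions was chr2:138380709-138381620, 912 bp wide. Its peak reached percentile 93.2 in E1 replicate 1 and 96.3 in E1 replicate 2, and the cut lists of all 3 E0 libraries lacked it. The uncut list of E0 replicate 2 held a weak peak there, at rank 58907 of 74432. In libraries with the control shRNA, the same region was called at percentiles 97.0, 97.2 and 85.0 in the 3 E1 lists and in no E0 list. All 5 E1 libraries of the study thus ranked it high, and none of the 6 E0 libraries held it after the cut.

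The second, chr14:88965180-88966003, reached 94.8 and 85.6 in the E1 libraries. No E0 library of the c-Fos arm had a peak there even in its uncut list. In the control arm it stood at 92.2, 94.7 and 89.6 at E1, and at 15.1 in E0 replicate 3 alone. The third, chr3:108665734-108666651, reached 87.0 and 88.5 and was held by each shRNA-Ctrl E1 and no shRNA-Ctrl E0 library. The same held for the fourth, chr1:76831514-76832407, at 90.3 and 81.6, although weak peaks lay there below the cut in E0 replicates 1 and 2 (ranks 32369 and 66657). The fifth, chr8:50823163-50824080, reached 85.7 and 85.3, and its peak in E0 replicate 2 missed the cut by a smaller margin, at rank 32287. It was also called at 32.2 in shRNA-Ctrl E0 replicate 2. The remaining 5 of the top 10 lay on chromosomes 8, 1, 18, 18 and 13, with mean percentiles from 81.4 to 83.7. All but 1 of the 10 appeared in each of the 3 shRNA-Ctrl E1 lists, and 6 of the 10 also in at least 1 shRNA-Ctrl E0 list, of which chr1:66598744-66599633 and chr13:98778387-98779095 appeared in 2. The exception, chr18:34399092-34400593, was called there in 2, at percentiles 71.0 and 50.9, and in no E0 library of either arm, cut or uncut.

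The 10 highest-scoring E0-only regions reached lower mean percentiles than the 10 highest-scoring E1-only regions. They were drawn from fewer regions, 1038 against 2321, and averaged over 3 libraries and not 2. Over the whole sets the median of the mean percentile was 34.2 for E0-only and 31.6 for E1-only regions. The first E0-only region, chr4:42961263-42963634, is a broad region of 2372 bp, at 82.2, 57.7 and 91.8 in E0 replicates 1 to 3. Neither E1 library had a peak there in its uncut list. All 6 shRNA-Ctrl libraries called it, at 77.8, 86.3 and 89.4 in E0 and 77.0, 82.4 and 39.3 in E1. Its absence therefore set apart the 2 shRNA-cFos E1 mice from every other mouse of the study. The second, chr1:116759343-116760213, stood at 75.9, 83.3 and 69.4 in E0, and E1 replicate 1 held it below the cut at rank 39198 of 48262. With the control shRNA it was called at 63.7, 73.2 and 53.5 in E0 and at no more than 25.7 in 2 of 3 E1 libraries, so the levels were lower at E1 there too.

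The third E0-only region, chr2:133828701-133829502, stood at 65.6, 77.2 and 81.9 in this arm, and after the cut 1 control library called it, shRNA-Ctrl E0 replicate 3 at 19.1. Next, chr5:63002968-63004194 and chr14:101751355-101751960 stood at 65.0 to 80.2 and at 69.2 to 74.9 in E0, and both were called in all 3 shRNA-Ctrl E0 libraries. Of the 3 shRNA-Ctrl E1 libraries, 1 also called the region on chromosome 5 and 2 the region on chromosome 14. Of the other 5, on chromosomes 6, 8, 15, 18 and 10, the mean percentiles ran from 67.7 to 71.4. The region on chromosome 6, chr6:23408704-23410764, was called at 90.7 in shRNA-Ctrl E0 replicate 2 and, after the cut, in no other control library. Those on chromosomes 8 and 18 were called in 1 and 2 shRNA-Ctrl E1 libraries, and in 3 and 1 shRNA-Ctrl E0 libraries. Those on chromosomes 15 and 10 were each called in 2 shRNA-Ctrl E0 libraries and in no shRNA-Ctrl E1 library.

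**Figure D2:**
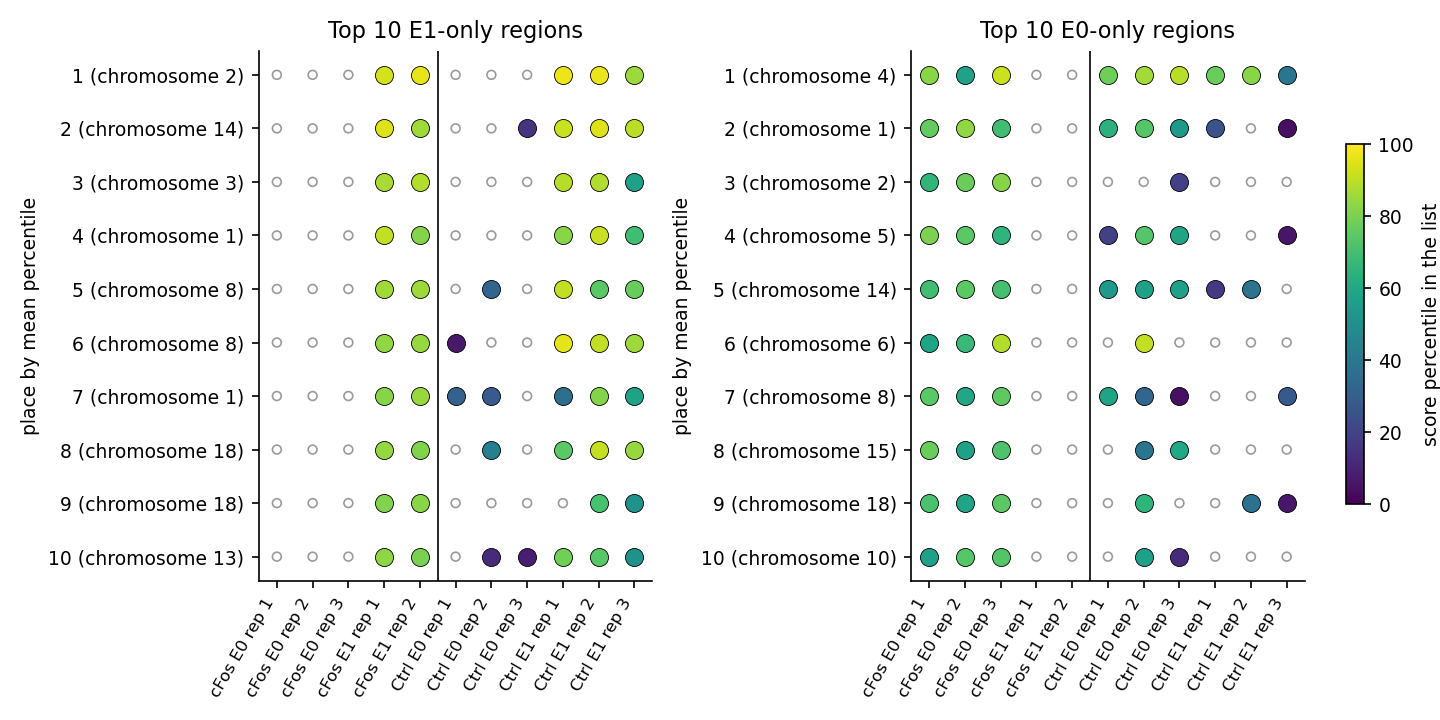
Score percentile (colour) of the 10 highest-scoring E1-only regions (left) and E0-only regions (right) in all 11 libraries, 1 row per region and 1 column per library; small open circles mark libraries whose cut list lacks the region. Left of the black line are the shRNA-cFos libraries that chose the regions, where the open circles follow from the choice; right of it are the shRNA-Ctrl libraries, where 9 of the 10 E1-only regions appear in each of the 3 E1 lists and 6 in at least 1 E0 list.

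Absence from a cut list often meant a weaker peak and not a missing one. Of the 2321 E1-only regions, 1517 (65.4%) had a peak in the uncut list of E0 replicate 2, which held 46015 peaks below the cut. E0 replicate 1, with 4717 peaks below the cut, had one in 195, and E0 replicate 3 had none below the cut. That left 774 E1-only regions (33.3%) with no peak in any deposited E0 list. Of the 1038 E0-only regions, 575 (55.4%) had a peak below the cut in E1 replicate 1 and 418 (40.3%) in E1 replicate 2, and 305 (29.4%) had none in either. The shares followed the number of peaks below the cut in each list. The same shares over all regions absent from a cut list were not computed, so these have no background.

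Score ranks within the 14441 regions called in all 5 libraries differed between the states in both directions. In 1895 of them (13.1%) the percentile was higher in both E1 libraries than in all 3 E0 libraries, and in 2358 (16.3%) it was lower. Averaged over the 10 arrangements of the labels, 1 in 10 regions without ties separates in each direction. Ranks are relative, so a gain of some regions pushes others down. The median absolute difference between the states was 6.12 percentile points over all 14441 regions, where the 2 E1 libraries themselves differed by a median of 6.39 points and the SD of the 3 E0 libraries had a median of 6.71. It exceeded 20 points in 2134 regions. In the regions ranked higher, the median difference was 15.0 points, from a median E0 mean of 62.4 to an E1 mean of 81.1. In those ranked lower it was -16.1 points, from 75.4 to 56.5. These differences follow from how the regions were chosen.

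The largest shift upward was at chr19:44948415-44949378, 964 bp wide. Its percentile was 17.0, 46.5 and 14.4 in E0 replicates 1 to 3, and 95.4 and 92.5 in E1. The peak was also wider at E1, 874 and 954 bp, than at E0, 428 to 709 bp. With the control shRNA no E0 list held it after the cut, and the E1 lists placed it at 88.8, 94.1 and 84.3. At chr14:47630498-47631454 the percentile was 6.80, 11.5 and 0.0264 in E0 and 64.6 and 80.0 in E1. At chr4:77208949-77210329 it was 34.7, 2.90 and 11.1 in E0 and 86.7 and 72.2 in E1. Neither of these was called in a shRNA-Ctrl E0 library after the cut, and each of the 3 shRNA-Ctrl E1 lists held both. Next, chr8:35543213-35544137 and chr3:146230397-146231989 differed by 62.3 and 62.0 points. Each of the 10 largest upward shifts, 59.4 to 68.0 points, lay in a region that all 3 cut control E1 lists held. For 7 the cut control E0 lists held none. Of these, chr14:84374083-84374772 had a peak in 1 uncut control E0 list. On average a cut control list held 89.5% of the 14441 regions at E1 and 88.7% at E0. Of the 5 upward and 5 downward shifts with the largest size, 9 of 10 left their class with lists cut to 25145 peaks, 10 at 15000 peaks and 9 where 50% of the region had to be covered, each with the same direction.

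The largest shift downward was at chr18:59404694-59405883, with 84.5, 78.9 and 79.5 in E0 and 24.7 and 1.09 in E1. At chr5:44053073-44054501 the percentile was 75.8, 70.3 and 76.5 in E0 and 13.0 and 3.24 in E1. This region was also called in all 3 shRNA-Ctrl E0 libraries at 70.0 to 73.9, and in 2 shRNA-Ctrl E1 libraries at 19.4 and 58.0. The third, chr15:25643214-25644351, stood at 82.6, 86.6 and 83.3 in E0 and at 7.24 and 30.6 in E1, and in the control arm all 3 E0 libraries and no E1 library called it. Next, chr12:30052728-30054181 and chr9:113701386-113702722 differed by -63.8 and -63.4 points. At the chromosome 9 region the control arm did not separate, since percentiles of 53.3, 30.5 and 76.0 in E0 overlapped with 52.0, 81.0 and 61.9 in E1.

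**Figure D3:**
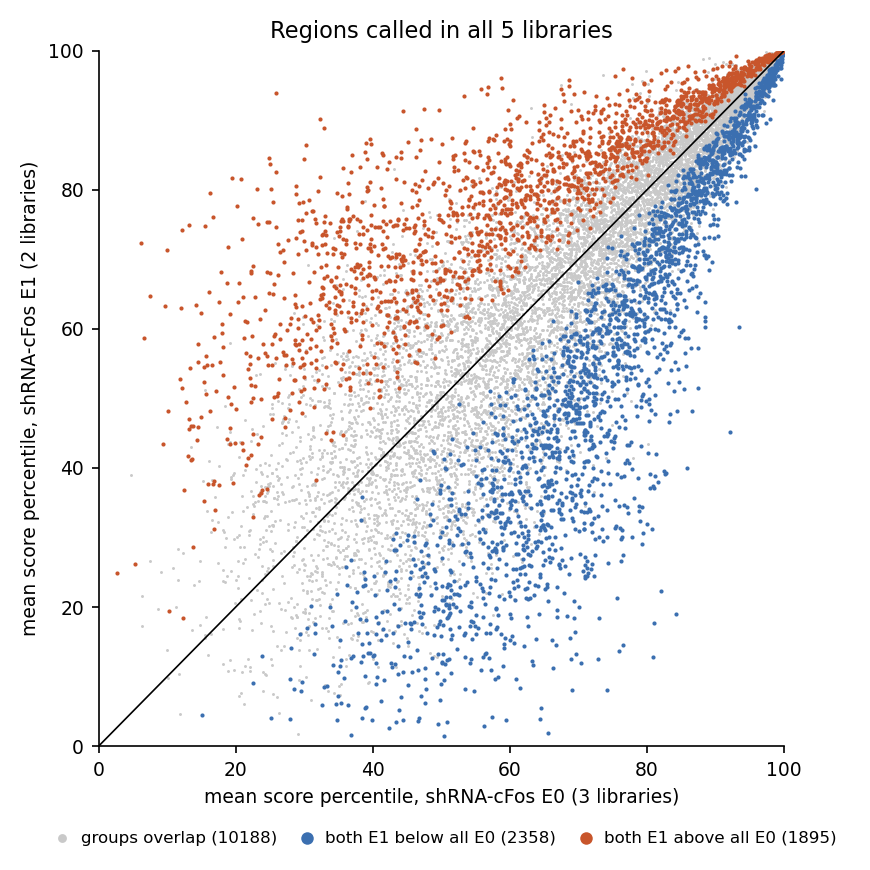
Mean score percentile of the 14441 regions called in all 5 libraries, in the 3 shRNA-cFos E0 libraries (horizontal axis) against the 2 shRNA-cFos E1 libraries (vertical axis), 1 point per region; the line marks equality. Orange points (1895) had both E1 libraries above all E0 libraries and blue points (2358) both below, and the cloud narrows toward the strongest peaks, where a rank can move little.

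Median peak widths of the cut lists overlapped between the states. The median width was 579, 815 and 521 bp in E0 replicates 1 to 3, and 735 and 686 bp in E1 replicates 1 and 2. E0 replicate 2 was above both E1 libraries and the other E0 libraries below them, so the groups overlap. The mean was 711 ± 34.6 bp (SD, n = 2) at E1 and 638 ± 156 bp (SD, n = 3) at E0, a log2 difference of 0.18 between the medians (two-sided exact permutation p = 0.5). In uncut lists the medians did not overlap, with 593 and 588 bp at E1 and 540, 527 and 521 bp at E0, a log2 difference of 0.16 (exact permutation p = 0.1, the smallest possible). The order of the widths after the cut was that of the list lengths, although every list had been cut to the same number of peaks. Covered length behaved alike, with 25.5 and 24.1 Mb at E1 and 20.1, 27.0 and 17.9 Mb at E0 (exact permutation p = 0.5).

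Within the regions called in all 5 libraries, 2582 (17.9%) had a wider strongest peak in both E1 libraries than in all 3 E0 libraries, and 348 (2.41%) a narrower one. This excess of wider regions depended on the scale of the widths. With each width divided by the median of its library over the same regions, 1759 (12.2%) were wider and 1898 (13.1%) narrower. The average over arrangements of the labels is again 1 in 10 in each direction. Without E0 replicate 2, the library with the widest peaks, 8421 were wider and 412 narrower by unscaled width. Leaving it out sets 2 libraries against 2, a looser requirement, so the average of 1 in 10 does not apply to these counts. The number of regions compared in that setting is not given here, so 8421 and 412 have no share and cannot be set directly against 2582 and 348. Width and rank moved together: 689 of the 1895 regions ranked higher at E1 were also wider (36.4%) and 8 narrower, while 218 of the 2358 ranked lower were wider (9.25%) and 175 narrower (7.42%). Both measures come from the same peaks, so these shares are no independent check of each other.

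Some loci had a compact peak at E0 and a stretch of several kilobases at E1. At chr2:94080076-94084702 the strongest peak was 911, 1121 and 828 bp wide in E0 and 4358 and 4627 bp in E1, on average 4.75-fold wider. Its percentile was not higher at E1 (10.8 and 47.4) than at E0 (57.0, 59.4 and 58.1). At chr10:126514577-126519640 the width was 1034, 1486 and 750 bp in E0 and 4930 and 4995 bp in E1. No shRNA-Ctrl library called that region after the cut. In the uncut control lists all 3 E1 libraries had a peak there, 1504, 1988 and 2464 bp wide, and no E0 library had one. Those lists are far longer at E1 (78349, 35474 and 75908 peaks) than at E0 (25145, 28391 and 29519), and held 72.6% of all 49242 regions on average against 45.6%. At chr11:74989217-74992927 the width was 703, 826 and 651 bp in E0 and 3711 and 3139 bp in E1. Next came chr8:69383693-69386538 and chr1:37733577-37737348, 4.23-fold and 4.13-fold wider. At the chromosome 8 locus all 3 shRNA-Ctrl E1 peaks, 2593, 1943 and 2760 bp, were wider than the 3 shRNA-Ctrl E0 peaks, 474, 778 and 993 bp. The other 5 of the 10 lay between 3.49-fold and 4.01-fold.

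Peaks wider than 2 kb in both E1 libraries and narrower than 1.5 kb in all 3 E0 libraries were found in 40 regions (0.277%), and the reverse in 0 (0%). The requirement of over 2 kb differs, 2 libraries for one and 3 for the other. Such peaks numbered 369, 1035 and 222 in the cut lists of E0 replicates 1 to 3, and 1011 and 881 in those of E1. The limits of 2 kb and 1.5 kb were chosen after the widths were seen. Of the 40 regions, 12 ranked higher (30%) and 9 lower (22.5%) at E1, against 13.1% and 16.3% of all 14441. In the control arm, a peak over 2 kb stood at 3, 8 and 18 of the 40 in the 3 E1 libraries and at 0, 0 and 1 in the E0 libraries. Over the whole cut control lists such peaks made up 1.32%, 1.26% and 2.99% at E1 and 0.664%, 0.962% and 1.72% at E0. Peaks over 2 kb made up 3.56% and 3.10% of the cut lists of E1 and 1.30%, 3.64% and 0.781% of those of E0, so E0 replicate 2 had as many broad peaks overall as the E1 libraries.

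By unscaled width, regions with a narrower strongest peak at E1 were fewer and differed less. With widths scaled by library, narrower regions outnumbered wider ones, 1898 against 1759. At chr9:113701386-113702722, named above for its rank, the width was 967, 1276 and 1095 bp in E0 and 520 and 332 bp in E1. At chr6:43245693-43248007 it was 1018, 2291 and 1732 bp in E0 and 982 and 574 bp in E1. At chr13:28507907-28512432 it was 1735, 4493 and 1434 bp in E0 and 909 and 1333 bp in E1. The next, both on chromosome 13, were 1 peak at E0 and 2 at E1. At chr13:22031934-22033289 each E0 library had 1 peak of 1170, 1321 and 1185 bp, while each E1 library had 2 peaks with a total length of 1316 and 1199 bp. At chr13:21900745-21904532 the single E0 peaks measured 3599, 3020 and 3611 bp, and the 2 peaks of each E1 library 3247 and 3108 bp in total. There the open stretch had nearly the same length in both states and a gap in the middle at E1. Over all 14441 regions, 13 had at least 2 peaks in both E1 libraries and 1 in each E0 library, and 10 had the opposite.

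Differences were spread over many loci. In windows of 100 kb, E1-only regions fell into 2131 of the 18490 windows with any region and E0-only regions into 1004, and 114 windows held both. Windows with at least 2 numbered 171 (0.925%) counting E1-only regions and 33 (0.178%) counting E0-only ones. The window with most E1-only regions was chr5:126000001-126100000, with 4 among 7 regions, at chr5:126011811-126014189, chr5:126048733-126049510, chr5:126058775-126059595 and chr5:126093325-126094101. It also held 1 E0-only region and none called in all 5 libraries. Next came chr13:37300001-37400000, where 3 of 4 regions were E1-only, the strongest of them chr13:37394332-37395201 at a mean percentile of 65.1. Then came chr16:31500001-31600000, chr13:95900001-96000000 and chr3:85000001-85100000 with 3 each. Among these 5 windows only the one at chr13:95900001-96000000 held a region called in all 5 libraries.

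E0-only regions gathered most at chr1:106800001-106900000, with 3 of 6 regions, of mean percentiles 22.5 to 43.6. The next 4 windows held 2 each, on chromosomes 13, 12, 5 and 15. The window on chromosome 5, chr5:73900001-74000000, held 2 E0-only and 2 E1-only regions among its 4, so both kinds lay side by side within it.

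The balance differed between chromosomes. E1-only regions made up 3.38% (chromosome X) to 6.56% (chromosome 19) of the regions of a chromosome, and E0-only regions 0.205% (chromosome 19) to 2.91% (chromosome 18). There were 1.63 to 5.0 E1-only regions for each E0-only region on all chromosomes but 19, where 64 stood against 2. The 2 lost regions there, chosen for mention after they were seen, were chr19:12647675-12648168, at 52.3, 35.0 and 52.9 in E0, and chr19:16336707-16337349, at 22.4, 8.39 and 23.4. In the control arm, with lists cut to 25145 peaks, 32 E1-only and 4 E0-only regions lay on chromosome 19, out of 2089 and 687 in all. Chromosome 19 held 984 of the 50828 regions of that arm, so its share of E1-only regions there was below that of all chromosomes together.

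Chromosome 19 also held a larger share of all peaks at E1, 2.39% and 2.13%, than at E0, 1.82%, 1.93% and 1.96% (two-sided exact permutation p = 0.1, the smallest possible). The share was looked at after the counts by chromosome were seen, and such a separation was not particular to chromosome 19. Of the 20 chromosomes, 4 held a larger share in both E1 than in all E0 libraries (5, 7, 16 and 19) and 4 a smaller one (1, 3, 6 and 14). In the control arm the groups overlapped on all 20. Separation in a given direction arises in 1 of 20 arrangements of 3 against 3 libraries, and in 1 of 10 of 2 against 3. The mean share at E1 was 1.19 times that at E0 on chromosome 19, 1.12 times on chromosome 7, 1.09 times on chromosome 16 and 1.06 times on chromosome 5. In the control arm it was 1.99%, 2.01% and 2.14% at E1 and 2.05%, 1.70% and 1.95% at E0, which overlap. The difference of the E1 effect between the arms, 0.200 percentage points with all lists cut to 25145 peaks, did not pass an exact permutation test (p = 0.32).

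**Figure D4:**
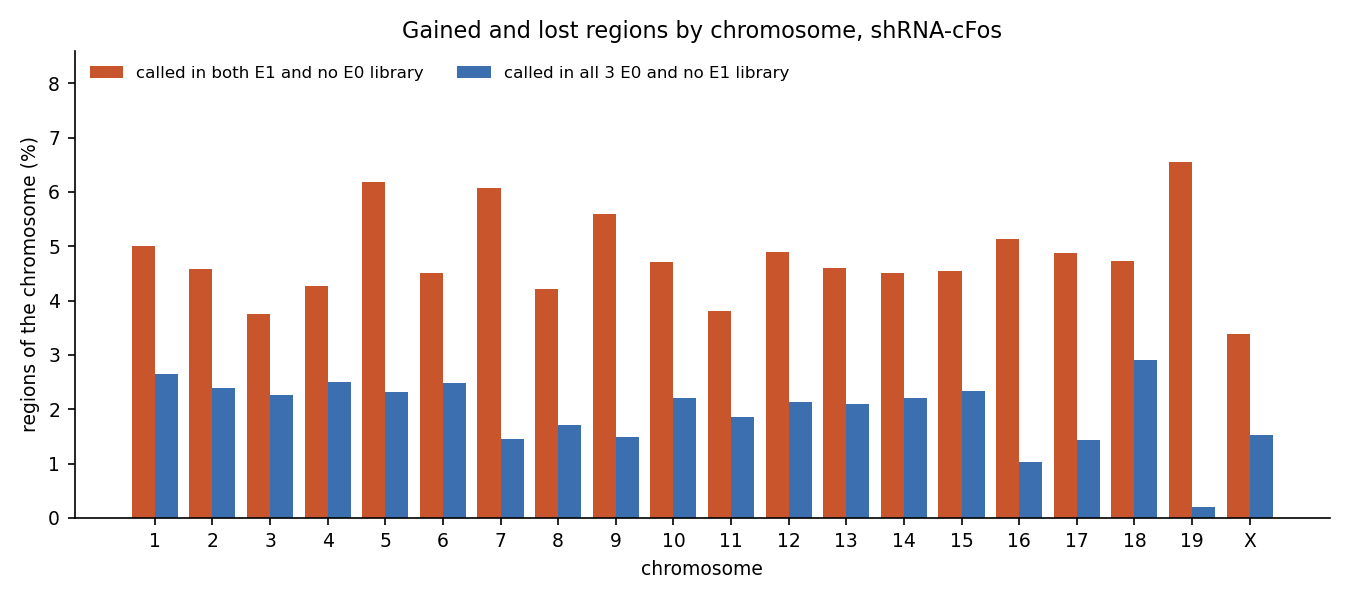
Share of each chromosome's regions that were E1-only (orange) and E0-only (blue) in the shRNA-cFos libraries, in percent of the regions of that chromosome. Chromosome 19 had the highest share of E1-only regions (6.56%) and the lowest of E0-only regions (0.205%).

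The same regions were then read in the 6 shRNA-Ctrl libraries, which had no part in choosing them, each cut to 25145 peaks. The E1-only regions were called at 55.7%, 63.9% and 54.4% in shRNA-Ctrl E1 and at 12.8%, 8.83% and 11.1% in shRNA-Ctrl E0. Every E1 library was above every E0 library, by a mean of 47.1 percentage points (two-sided exact permutation p = 0.1, which 3 libraries against 3 cannot go below, and 0.1 after Benjamini-Hochberg adjustment over 8 tests). Over all 49242 regions the shares were 45.4% ± 1.08 (SD, n = 3) and 43.1% ± 1.36 (SD, n = 3), which also did not overlap (difference 2.36 points, exact permutation p = 0.1). All 3 shRNA-Ctrl E1 libraries called 838 of the 2321 E1-only regions, and none called 454. All 3 shRNA-Ctrl E0 libraries called 24 of them, and none called 1734. No control library of either state called 350. The matching counts over all 49242 regions were not made, so these counts have no background. The E0-only regions were called at 16.7%, 15.7% and 23.8% in shRNA-Ctrl E1 and at 36.0%, 48.6% and 47.5% in shRNA-Ctrl E0, a difference of -25.3 points (exact permutation p = 0.1, adjusted 0.1). In uncut control lists the same regions differed by 14.3 points toward E1 (exact permutation p = 0.5), where all 49242 regions differed by 27.0 points (exact permutation p = 0.1). These lists are longer at E1.

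Score ranks were read in the same way. Counting an uncalled region as 0, the mean percentile of the 1895 regions ranked higher in the c-Fos arm was 67.4, 69.0 and 68.1 in shRNA-Ctrl E1 and 54.8, 52.7 and 54.7 in shRNA-Ctrl E0. The difference was 14.1 points (exact permutation p = 0.1, adjusted 0.1). For the 2358 regions ranked lower it was -10.8 points, with 49.7, 48.3 and 53.6 at E1 and 59.7, 62.0 and 62.3 at E0 (exact permutation p = 0.1, adjusted 0.1). In uncut control lists the direction of this last difference turned, to 9.90 points (exact permutation p = 0.4). In those uncut lists the percent called was higher at E1 by 3.72 points for the regions ranked lower. It was higher by 7.53 points for the 14441 regions called in all 5 libraries, whose uncut mean percentile is not given here. With the control lists cut, the mean percentile of these 14441 regions differed by -1.95 points (exact permutation p = 0.3). Among the regions also called in all 6 control libraries, 9930 in all, the percentile was higher in every E1 than in every E0 control library in 710 (7.15%) and lower in 1192 (12%). Of the 1219 such regions ranked higher in the c-Fos arm, 283 (23.2%) were higher in this sense and 62 (5.09%) lower. Of the 1538 ranked lower, 36 (2.34%) were higher and 288 (18.7%) lower. Over the 20 arrangements of 3 against 3, the average share is 1 in 20 in each direction, not the 1 in 10 of 2 against 3.

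**Figure D5:**
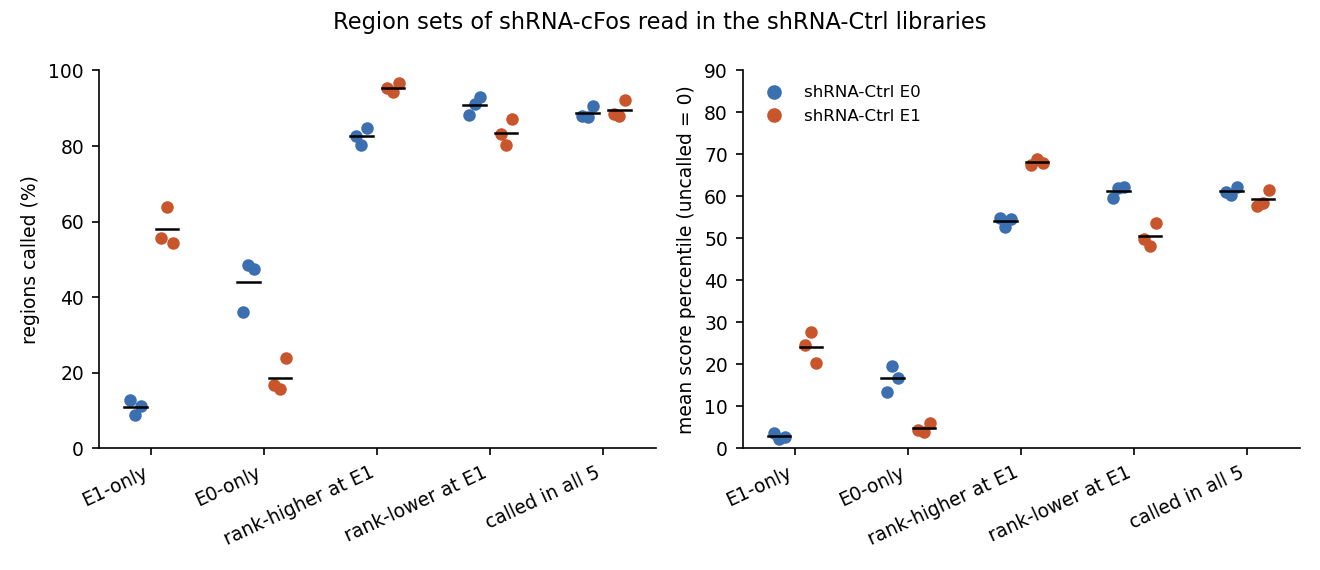
Sets of regions chosen in the shRNA-cFos libraries, read in the 3 shRNA-Ctrl E0 (blue) and 3 shRNA-Ctrl E1 (orange) libraries: percent of regions called (left) and mean score percentile with uncalled regions as 0 (right); points are libraries and black lines their means. In the first 4 sets the E0 and E1 points do not overlap on either measure, while the regions called in all 5 libraries, at the far right, overlap on both.

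The lists of the same state were not clearly more alike than those of different states. The base-pair Jaccard index, the length covered by both lists divided by the length covered by either, was highest between the 2 E1 libraries (0.582). The E0 libraries shared 0.504 (replicates 1 and 3), 0.495 (1 and 2) and 0.454 (2 and 3) with each other. E0 replicate 2 was closer to E1 replicates 1 and 2 (0.512 and 0.502) than to either of its own group. The mean was 0.509 within states and 0.476 between them (one-sided exact permutation p = 0.2, where 0.1 is the smallest possible).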

How the data were processed

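ATAC-seq peak lists of the 5 shRNA-cFos libraries, and of the 6 shRNA-Ctrl libraries as a held-out reading, were used as deposited. Each holds mm9 positions and a MACS score per peak, in 1 deposited list per library. The scale of the deposited score is not stated. Bowtie2 and mm9 are named in the submitters' processing notes, and filters, read shifts and caller settings are not given in the sources used here. Depth is therefore unknown.

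Lists were restricted to chromosomes 1 to 19 and X, cut by score to 28417 peaks (25145 in control readings; ties in file order), and merged at 1 bp of overlap. A region's rank and width in a library are those of its highest-scoring peak there. Windows were 100 kb. Higher, lower, wider or narrower means that both E1 libraries lay beyond all 3 E0 libraries. Group values were compared by exact permutation. Regions named were the 10 most extreme per set and direction and the 5 windows with most regions. The members and lists were chosen with earlier results of these data known. The limits for broad peaks, the scaled widths and the chromosome 19 share were added after the data were seen.

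Gene annotation, sequence, motif and marker comparisons were planned for mm9 only and were not run, since the tables at hand are of GRCm38.p6. Scripts (Python 3.11.15, numpy 2.4.6, pandas 2.3.3, scipy 1.17.1, matplotlib 3.10.9) were tested on simulated data.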

Additional observations from a re-analysis of the deposited data

How the results depend on the processing

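The counts depend on list length and on how many libraries must agree. E1-only and E0-only regions numbered 774 and 305 where absence meant no peak in the uncut lists of the other state, 1183 and 579 with lists cut to 15000 peaks, and 1290 and 223 at a score of at least 100 in uncut lists. Higher and lower ranks numbered 1239 and 1334 in uncut lists, 1076 and 1294 at 15000 peaks, and 637 and 433 by raw score, and 1164 ranked higher where 50% of a region had to be covered. Wider and narrower regions numbered 1614 and 185 at 15000 peaks, and 1898 were narrower with scaled widths. Windows with at least 2 E1-only or E0-only regions numbered 101 and 18 at 50 kb, and 296 and 77 at 250 kb.

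Leaving out 1 library, which also relaxes the call, gave 2796 to 5276 E1-only and 1876 to 2115 E0-only regions, 2961 to 3659 ranked higher and 3543 to 4693 lower, 3086 to 8421 wider and 412 to 1551 narrower, and 229 to 718 and 101 to 119 such windows. With the replicate number as a block (replicate block), which leaves out E0 replicate 3, the log2 width difference was 0.0478 (exact permutation p = 1). With 2 pairs of libraries this test allows no small p, so it cannot decide whether widths differ. The labels do not say that numbers pair mice. Deviations of the percentiles from their group mean, over the 14441 regions, correlated at -0.0507 and -0.0378 between same-numbered libraries. Between libraries of different number they correlated at -0.0119 to 0.0507. With 2 E1 libraries the deviations of one mirror those of the other, so these values are not independent.

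With both arms uncut, which also redefines the region sets, 4 control differences reversed, to 15.9 points in percent called and 8.14 in mean percentile for E0-only regions, and to 5.15 and 8.86 for regions ranked lower. With the same regions and only the control lists uncut, an alternative added after the data were seen, they were 14.3, 9.97, 3.72 and 9.90. The cause was not tested. The region at chr13:22031934-22033289 reversed to 0.038 (log2) by total peak length. Of 170 values over 18 results, 109 stayed within their limits, 53 moved and 8 reversed. Only counts could move. Values with an exact permutation p could only stay or reverse, since these library numbers allow no small p. For those values, staying shows no more than an unchanged direction, so the tally does not measure how stable the results are. Motif alternatives were not run.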
